A study of Homo sapiens with 24 samples.

Results

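miR-302a, miR-372 and miR-373 share the same seed, and their 9 RNA-seq libraries were pooled here, with equal weight for each miRNA, into a single same-seed group that was compared with the 3 empty vector libraries of the same batch. The libraries were chosen by their labels and are 12 of the 24 samples of the series. All were polyadenylated RNA from Flp-In T-REx 293 cells, a derivative of the human embryonic kidney line HEK293. Of 29794 genes in the count table, 14054 had enough counts to be tested.

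The cells of each miRNA group carried a lentiviral vector in which the miRNA, placed in an artificial hairpin backbone, sat in the intron of a doxycycline-inducible GFP gene driven by a CMV promoter. The empty vector cells carried the same GFP vector without a hairpin. Geneticin (1 mg/mL, 6 days) was used for selection in all 4 groups, and doxycycline (1 µg/mL) was given for 7 days, so doxycycline and GFP were common to both sides of the comparison. The 3 libraries of a group came from independent transductions. The level of the mature miRNAs cannot be read from these libraries, which were made from polyadenylated RNA. The annotated MIR302A, MIR372 and MIR373 genes had 0 counts in all 12 of them, but the added miRNAs came from the vector and not from these genes. In bulk RNA, fewer cells that express a gene and less of its RNA per cell cannot be told apart.

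The 12 libraries held between 13047400 and 35040778 counts. Of 7 kidney and HEK293 marker genes, 6 exceeded 1 CPM (the count scaled to a common library size) in every library, and PAX8 stayed between 0 and 0.210 CPM. The markers of other cell types were low: the 8 blood markers summed to 0.783 to 2.24 CPM in the same-seed group and 0.988 to 1.42 CPM in the empty vector group, with HBG1 at 0. The 7 liver markers summed to 0.153 to 0.701 against 0.600 to 1.26 CPM, the 8 muscle markers to 7.79 to 9.88 against 6.65 to 7.80 CPM, mostly from MYH3 (means of 6.38 and 6.29 CPM), and the 7 fibroblast and endothelium markers to 0.671 to 1.19 against 0.629 to 0.922 CPM. Within the same-seed group, the libraries numbered 2 stood apart from those numbered 1 and 3 on the first principal component (5.79 to 8.12 against 13.6 to 24.0), and the second replicate of miR-372 lay farthest from all others on the second component, at -36.8. Fold changes also depended on gene length: the slope of a library's log2 values on log2 gene length was 0.0383 to 0.0809 in the empty vector group and -0.0994 to 0.0396 in the same-seed group. Several counts below are also given with the length slope in the fit. The slope was computed from these same values and differed between the groups. Fitting it therefore also removes part of any group difference that goes with gene length, whatever its cause.

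A miRNA guides an Argonaute protein to messenger RNAs, mostly through pairing of its seed with a site in the 3'UTR, and the bound messages are destabilised or translated less. The miR-302 and miR-371 to miR-373 families are abundant in human embryonic stem cells, where their targets include inhibitors of the cell cycle, components of TGF-beta signalling, the Hippo kinase LATS2 and chromatin regulators. The mature sequences are shown to make the shared part visible, with the seed, bases 2 to 8, in capitals. The sequences are from RefSeq.

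hsa-miR-302a-3p: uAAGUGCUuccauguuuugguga
hsa-miR-372-3p: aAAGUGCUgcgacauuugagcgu
hsa-miR-373-3p: gAAGUGCUucgauuuuggggugu

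Outside the seed the 3 miRNAs differ. Over 23 positions, miR-302a was identical to miR-372 at 14 and to miR-373 at 17, and miR-372 was identical to miR-373 at 16. Of the 15 positions after the seed, 7 to 10 were identical in a pair. The seed pairs with AGCACTT in a target, and a match followed by A is called an 8mer, the most effective kind of seed site. The sites below, with the match in capitals, are those of the genes the results turn on. All lie in the annotated 3'UTR, and the coordinates, on GRCh37, are those of the match itself.

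GALNT3 8mer, chr2:166604642-166604649, minus strand: actccacttgaAGCACTTAagtcttcctta
MBD2 first 8mer, chr18:51681392-51681399, minus strand: actggaaatgtAGCACTTAcgtaaaacatt
MBD2 second 8mer, chr18:51678854-51678861, minus strand: gttacagccccAGCACTTAgctgagtgact
ELAVL2 8mer, chr9:23690277-23690284, minus strand: tgttttatcagAGCACTTAataaaatgtaa
LATS2 first 8mer, chr13:21548740-21548747, minus strand: agtttagaaagAGCACTTAttttgtttata
LATS2 second 8mer, chr13:21548640-21548647, minus strand: attttatccatAGCACTTAttcacatttag
TGFBR2 8mer, chr3:30735514-30735521, plus strand: caaaagtctcaAGCACTTAtttttattcta
RELA 8mer, chr11:65421783-65421790, minus strand: agccctccaaaAGCACTTAcggattctggt

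The same-seed group differed from the empty vector at 2164 of the 14054 genes tested, 15.4% of them, by edgeR's quasi-likelihood test with a Benjamini-Hochberg adjusted p below 0.05. Lower genes outnumbered higher ones, with 1281 genes lower (9.11%) and 883 higher (6.28%), so 59.2% of the called genes were lower. Most changes were small. The median log2 fold change was -0.42 among the lower and 0.36 among the higher genes, and 96 genes fell and 85 rose by at least 2-fold. Of all genes tested, 1032 (7.34%) were called lower with all 9 libraries below the 3 empty vector libraries, and 709 (5.04%) were called higher with all 9 above them. By gene type, protein-coding genes made up 1236 of the lower and 855 of the higher genes, and 35 lncRNAs fell and 17 rose among 601 tested.

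The number of calls depended on the 3 empty vector libraries. Without the first, the second or the third of them the count was 1154, 1100 or 1266. With the 3 number 2 libraries of the same-seed group left out, the higher genes numbered 1405. Fits that left out each of the 12 libraries in turn all called 519 of the lower and 256 of the higher genes. Genes named below as lower or higher are among these unless a sentence says otherwise.

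Pooling added genes that no single miRNA showed. Against the empty vector, miR-302a alone gave 682 lower (4.85%) and 425 higher (3.02%) genes, miR-372 gave 922 (6.56%) and 677 (4.82%), and miR-373 gave 464 (3.30%) and 257 (1.83%). Of the 2164 pooled calls, 479 were made in none of these 3 comparisons, 287 of them lower and 192 higher, and 602 were made in all 3. These comparisons use the same empty vector libraries. Between the 3 miRNAs themselves, edgeR's quasi-likelihood test called 0 genes, with a lowest adjusted p of 0.94. In that test 119 genes (0.847%) had an unadjusted p below 0.05. A share of 0.05 would be expected if no gene differed, so the test found fewer than its nominal rate. Its 0 calls therefore do not establish that the 3 miRNAs act alike. DESeq2 and edgeR's likelihood ratio test each called 4 genes.

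The genes with the lowest and highest fold changes were taken from the called genes with a mean log2 CPM of 1 or more whose 2 groups do not overlap, so that their separation is part of the choice and no finding. Among the 10 lowest of these were interferon-induced genes, a gene of antigen processing and genes with 8mer sites. OAS3, which makes the second messenger that activates RNase L, was at 12.2, 14.9 and 15.8 CPM in the empty vector libraries and at a lowest of 2.04, a median of 2.71 and a highest of 3.51 CPM in the 9 same-seed libraries. The log2 fold change was -2.47 (SE 0.130, adjusted p = 2.7e-10). SP110, a nuclear body protein induced by interferon, was at 7.73, 8.44 and 8.60 CPM against 0.912, 2.29 and 2.62 CPM at the lowest, median and highest (log2 fold change -1.95, SE 0.165, adjusted p = 1.8e-07). The lowest SP110 value was that of the first replicate of miR-302a. IFIH1, the cytosolic sensor of double-stranded RNA also called MDA5, had 11.1, 10.5 and 8.53 CPM against 2.63, 4.15 and 5.40 CPM (log2 fold change -1.33, SE 0.154, adjusted p = 9.9e-06). ERAP2, an aminopeptidase of the endoplasmic reticulum that trims peptides for MHC class I, had 42.4, 36.8 and 40.4 CPM against 8.17, 11.5 and 14.5 CPM (log2 fold change -1.82, SE 0.120, adjusted p = 5.4e-09).

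Among genes with an 8mer, GALNT3, which starts the O-glycosylation of FGF23 and mucins, had the lowest fold change. Its level was 53.1, 42.6 and 45.0 CPM in the empty vector libraries and 13.6, 15.2 and 18.2 CPM at the lowest, median and highest same-seed library (log2 fold change -1.57, SE 0.0719, adjusted p = 8.1e-11). The iron reductase gene CYBRD1 had 20.8, 18.2 and 20 CPM against 5.25, 7.16 and 8.70 CPM (log2 fold change -1.46, SE 0.101, adjusted p = 1.1e-08). MBD2, which binds methylated CpG and recruits the NuRD corepressor, had 59.4, 54.7 and 60.8 CPM against 21.6, 24.3 and 29.2 CPM (log2 fold change -1.24, SE 0.0654, adjusted p = 2.7e-10). The span of its gene overlaps the small nucleolar RNA gene SNORA37 on the same strand, and an overlap of exons was not examined. ELAVL2, a neuronal RNA-binding protein, had 35.8, 37.04 and 37.1 CPM against 15.0, 16.0 and 17.4 CPM (log2 fold change -1.19, SE 0.0596, adjusted p = 2.1e-10), with the smallest SE of these genes. A lower level was not particular to the same-seed group: the ELAVL2 mean was 37.65 CPM in miR-133a cells and 21.0 CPM in miR-155 cells. MICA, a stress-induced ligand of the NK cell receptor NKG2D, had 22.0, 17.99 and 19.2 CPM against 7.28, 8.79 and 10.2 CPM (log2 fold change -1.19, SE 0.107, adjusted p = 3.7e-07). It overlaps another annotated gene on its strand, ENSG00000288587, so reads shared between them are uncertain. SYDE1, an activator of GTP hydrolysis by small GTPases, had 29.1, 36.3 and 33.9 CPM against 11.7, 15.3 and 17.3 CPM (log2 fold change -1.16, SE 0.0851, adjusted p = 2.6e-08).

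The other genes of the 10 lowest were MAP2, RAB32 and SCIN. MAP2, a dendritic microtubule-binding protein, had 7.35, 8.63 and 8.88 CPM in the empty vector libraries and 2.04, 3.11 and 4.20 CPM at the lowest, median and highest of the same-seed group (log2 fold change -1.35, SE 0.157, adjusted p = 1e-05). RAB32, a GTPase of lysosome-related organelles and mitochondria, had 8.03, 7.05 and 6.78 CPM against 2.27, 2.67 and 4.09 CPM (log2 fold change -1.29, SE 0.146, adjusted p = 7.3e-06). Its low level was not particular to the same-seed group: the mean was 3.09 CPM in miR-133a cells and 8.55 CPM in miR-155 cells. SCIN, an actin-severing protein, had 36.5, 39.9 and 40.7 CPM against 11.8, 16.6 and 20.4 CPM (log2 fold change -1.29, SE 0.115, adjusted p = 3.7e-07), and its gene overlaps ENSG00000229233 on the same strand.

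The 10 genes with the highest fold changes by the same rule were of low expression, and none of them had a 7-letter seed match outside the Alu letters described below. SERPINF1, which encodes the secreted anti-angiogenic factor PEDF, was the best expressed of them: it had 5.93, 5.34 and 6.99 CPM in the empty vector libraries and 19.3, 30.7 and 34.9 CPM at the lowest, median and highest of the same-seed group (log2 fold change 2.26, SE 0.182, adjusted p = 9.4e-08). The SERPINF1 mean was 11.1 CPM in miR-133a cells and 4.81 CPM in miR-155 cells. PRSS8, a membrane-anchored protease that activates the epithelial sodium channel, had 1.28, 0.989 and 1.12 CPM against 2.46, 4.42 and 7.25 CPM (log2 fold change 2.04, SE 0.310, adjusted p = 1.7e-04). SULT2A1, a sulfotransferase of steroids and bile acids, had 1.80, 1.25 and 1.68 CPM against 5.19, 6.04 and 7.28 CPM (log2 fold change 1.92, SE 0.174, adjusted p = 4.2e-07). The SULT2A1 mean was 3.49 CPM in miR-133a cells and 1.82 CPM in miR-155 cells. SNCG, a synuclein, rose from a mean of 1.22 to 5.01 CPM, ANGPT2, a ligand of the TIE2 receptor, from 0.739 to 2.78 CPM, and IL32, a cytokine, from 3.91 to 13.4 CPM. GPSM3, a regulator of G protein signalling that overlaps NOTCH4 on the same strand, rose from 2.20 to 7.39 CPM and MXRA8, a matrix remodelling protein, from 1.13 to 3.36 CPM. WFDC2, a secreted protease inhibitor, rose from 1.38 to 3.41 CPM and RDH16, a retinol dehydrogenase, from 1.02 to 2.53 CPM. RDH16 lost its call without the first empty vector replicate (log2 fold change 1.17, adjusted p = 0.057).

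**Figure D1:**
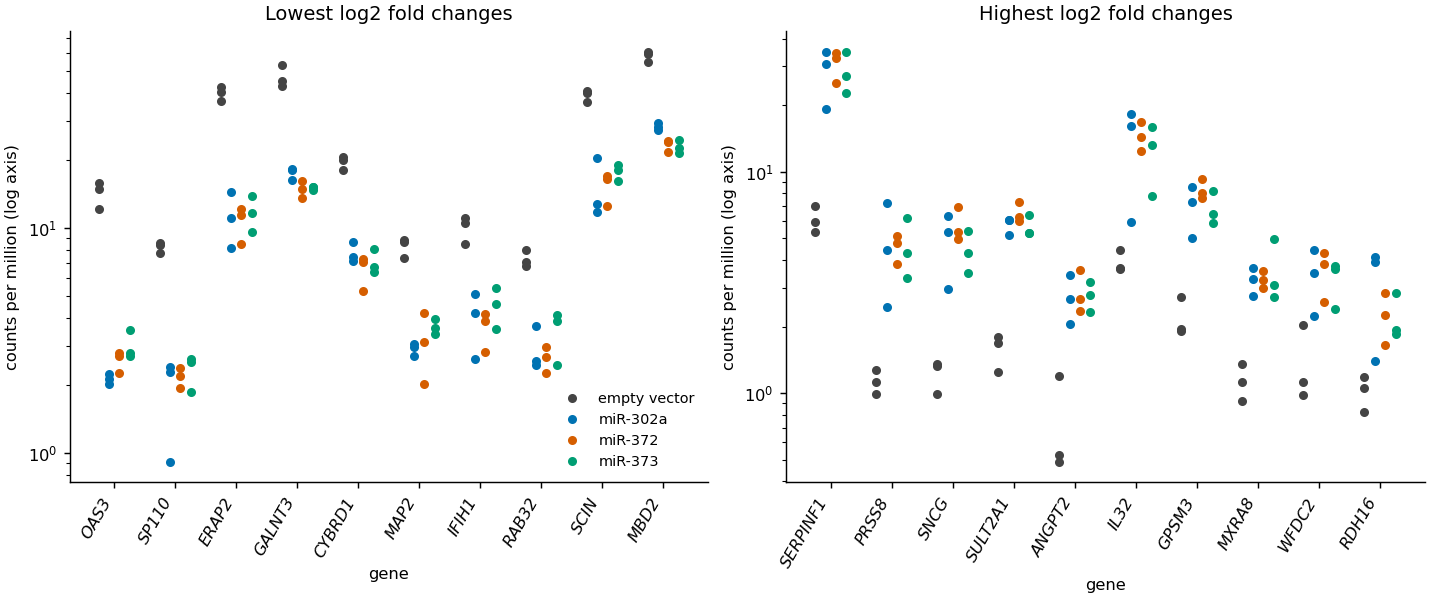
Normalised counts (CPM) on a log axis of the 10 genes with the lowest (left) and the 10 with the highest (right) log2 fold change, 1 point per library, in the empty vector and the 3 miRNA groups. Genes were chosen among those whose groups do not overlap, and the libraries lie at 2.04 to 3.51 CPM against 12.2 to 15.8 CPM for OAS3.

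Genes with a match to the seed had lower fold changes than genes without, and the more so the longer the match. A match was looked for on the sense strand of the longest annotated 3'UTR of 13050 tested genes, of which 9.47% were lower and 6.55% higher. The letters searched were AGCACTTA for the 8mer, AGCACTT for the 7mer-m8, GCACTTA for the 7mer-A1 and GCACTT for the 6mer, each gene being put in its strongest class. Of 563 genes with an 8mer, 190 were lower (33.7%) and 13 higher, with a median log2 fold change of -0.17. Of 2885 genes with a 7mer-m8, 368 were lower (12.8%) and 120 higher (median -0.04). Of 7553 genes with none of these letters, 433 were lower (5.73%) and 616 higher (8.16%), with a median of 0.04. The share of all 3'UTRs with an 8mer was 4.31%, and 26.4% held at least the 7 letters of the 7mer-m8. A match is a run of letters and not a measured binding site.

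Many of the 7-letter matches were in Alu sequence. The Alu repeat contains the same 7 letters with ATCCC before and TGGG after them, and 2139 of 5108 matches (41.9%) were either preceded by ATCCC or followed by TGGG. A match of this kind was the only 7-letter match in 1070 genes (8.20%). Of these, 84 were lower (7.85%) and 71 higher (6.64%), with a median of 0.01, close to the shares among all genes with a 3'UTR, although their 3'UTRs were long (median 2975 bases). The 1827 genes left with a 7mer-m8 elsewhere had 15.6% lower and 2.74% higher, with a median of -0.07. The 483 genes with a 7mer-A1 had 19.5% lower (median -0.09), and the 1566 genes with a 6mer had 9.64% lower (median -0.02). This division was chosen after the data had been seen.

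**Figure D2:**
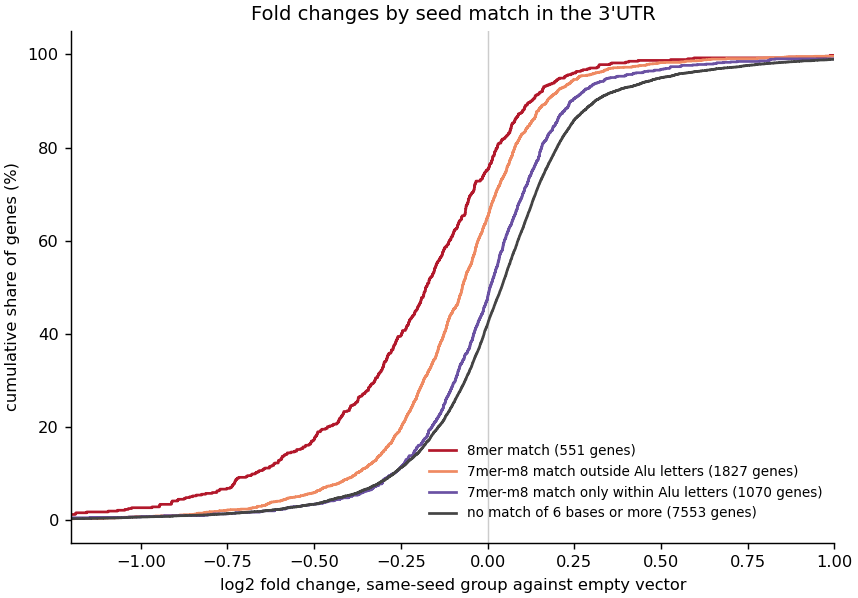
Cumulative share of genes (%) against the log2 fold change of the same-seed group over the empty vector, 1 line per class of seed match in the 3'UTR. The line of genes with an 8mer lies farthest to the left (median -0.18 over 551 genes), that of 7mer-m8 matches outside Alu letters next (-0.07), and that of matches only within Alu letters (0.01) near the genes with no match (0.04).

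The number of matches and the base after a match also went with the size of the change. Outside Alu letters, 17.5% of 1912 genes with 1 match were lower (median -0.07), 27.8% of 367 genes with 2 matches (median -0.15) and 37.4% of 99 genes with 3 or more (median -0.25). Genes with more matches had longer 3'UTRs, with a median of 2972, 4531 and 7736 bases. Where the single match was followed by A, 33.9% of 301 genes were lower (median -0.17), against 15.2% of 640 with T, 16.2% of 265 with C and 16.2% of 351 with G (medians -0.06, -0.08 and -0.08). The share was highest for A and similar for the other bases.

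Genes with long 3'UTRs had lower fold changes even without a match, with medians of 0.08, 0.04, -0.01 and -0.05 from the shortest to the longest of 4 groups of about equal size, so the classes were also compared within these groups of 3'UTR length, from 3 to 661, 662 to 1540, 1541 to 3005 and 3006 to 32873 bases. The median of genes with an 8mer was below that of genes with no match by -0.28, -0.18, -0.19 and -0.12 in these groups, the first of which held 16 genes with an 8mer. For 7mer-m8 matches outside Alu letters the difference was -0.12, -0.09, -0.08 and -0.03. For genes with a match only in Alu letters it was -0.01, 0.01, 0.01 and 0.04, so their direction turned with length. With the length slope of each library in the fit, the 8mer difference over all lengths was -0.13 in place of -0.21.

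Each of the 9 libraries showed the 8mer difference by itself. Against the mean of the empty vector libraries, the median of genes with an 8mer minus that of genes without a match ranged from -0.37 in the second replicate of miR-372 through a median of -0.18 to -0.15, with a mean of -0.22 ± 0.07 (SD, n = 9). The empty vector libraries, each set against the other 2, lay between -0.05 and 0.02. By miRNA, miR-302a had a mean of -0.23 ± 0.05, miR-372 of -0.25 ± 0.11 and miR-373 of -0.17 ± 0.02 (SD, n = 3 each), ranges that overlap. For 7mer-m8 matches outside Alu letters the 9 libraries lay between -0.24 and -0.05 and the empty vector libraries between -0.03 and 0.03. For matches only in Alu letters they lay between -0.07 and 0.00 and between -0.01 and 0.01. These differences by library were not matched for 3'UTR length or adjusted for the length slope. Genes with an 8mer had a median 3'UTR of 3645 bases, against 903 for genes without a match. The second replicate of miR-372 also had the lowest length slope of the same-seed group (-0.0994). The second replicate of miR-373, whose 8mer difference was nearest 0, had the highest (0.0396). The part of length in these differences was not tested.

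**Figure D3:**
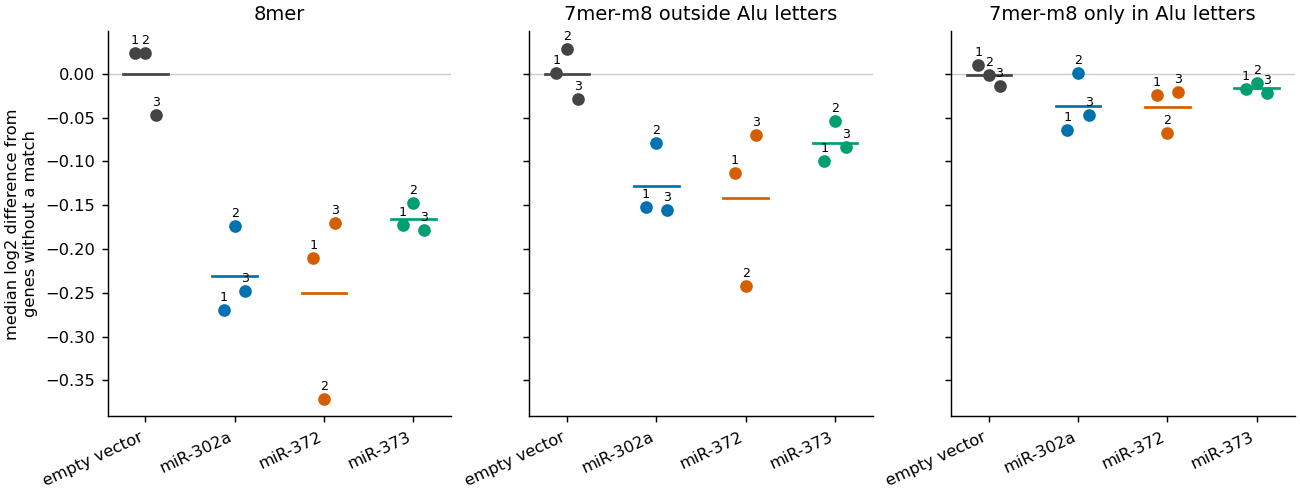
Median log2 difference between genes with a match and genes without one, by library (points, with replicate numbers) and group mean (line), for 8mer, 7mer-m8 outside Alu letters and matches only in Alu letters. All 9 miRNA libraries lie at -0.15 or below for the 8mer, and the 3 empty vector libraries between -0.05 and 0.02. The differences are not matched for 3'UTR length or adjusted for the length slope.

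The called genes were read from the other side as well. Of 1236 lower genes with a 3'UTR, 189 (15.3%) had an 8mer, 285 (23.1%) a 7mer-m8 and 94 (7.61%) a 7mer-A1 outside Alu letters, where 4.22%, 14.0% and 3.70% of all tested genes did. No match of 6 letters or more was found in 433 of them (35.0%). Of 855 higher genes, 616 (72%) had no match and 12 (1.40%) an 8mer. Of all tested genes with a 3'UTR 57.9% had no match. Of the 10 genes with the lowest fold changes, GALNT3, CYBRD1 and MBD2 had an 8mer, RAB32 a 7mer-A1 and MAP2 a 6mer. ERAP2, SP110 and SCIN had their 7-letter matches in Alu letters alone, and OAS3 and IFIH1 had none.

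A second comparison without the empty vector was made with the 6 libraries of cells that expressed miR-133a or miR-155, whose seeds differ from the shared one. It shares the 9 same-seed libraries, and genes that miR-133a or miR-155 changed enter it with the sign turned. It gave 1893 lower (13.5%) and 2016 higher (14.3%) genes. Of the genes lower against the empty vector, 873 were lower here too, 18 were higher and 390 were not called, and of the higher genes 575 were higher, 0 lower and 308 not called. GALNT3 was lower by -1.64 on the log2 scale in this comparison, MBD2 by -1.36, OAS3 by -1.91, ERAP2 by -1.87 and SP110 by -1.63. SERPINF1 was higher by 1.99. The median of genes with an 8mer was -0.09 and that of genes with no match 0.01. It was -0.01 for genes with a 7mer-m8 outside Alu letters and -0.04 for those with a 7mer-A1. The classes lay closer together here than against the empty vector. There the medians were -0.18 for the 8mer, -0.07 for the 7mer-m8, -0.09 for the 7mer-A1 and 0.04 for no match.

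Genes reported in the literature as targets of this seed were mostly lower. Of 24 tested, 13 were lower (54.2%, against 9.11% of all genes) and 0 higher, with a median of -0.30 against 0.00, and all 13 kept their call when any library was left out. The list was drawn up with earlier results of these data known. All 13 had a match of 7 letters or more outside Alu letters. TGFBR2, the type II receptor of TGF-beta, fell from a mean of 18.8 to 9.08 CPM (log2 fold change -1.05, adjusted p = 4.8e-08), and LATS2 from 15.5 to 8.20 CPM (log2 fold change -0.91, adjusted p = 3.4e-05). DAZAP2, a small adaptor protein, fell from 151.6 to 87.1 CPM (-0.80). KDM1B, a histone demethylase active in the germ line, fell from 52.9 to 31.9 CPM (-0.73), RELA, the p65 subunit of NF-kB, from 52.5 to 32.0 CPM (-0.72) and SMARCC2, a subunit of the SWI/SNF remodeller, from 165.8 to 107.2 CPM (-0.63). The BMP receptor BMPR2 (-0.52), the microtubule-tip protein SLAIN1 (-0.44), the pocket protein RBL2 (-0.40), TNFAIP1 (-0.30) and the repressor ZBTB7A (-0.29) fell less. The hyaluronan receptor CD44 was at -0.85 against the empty vector and at -0.19 (adjusted p = 0.26) against the miR-133a and miR-155 libraries.

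Other reported targets did not pass the test. In simulated data the fit recovered 62% of genes lowered by 0.5 on the log2 scale and 54% of those raised by 0.5. Changes of the sizes below could therefore be missed. The CDK inhibitor CDKN1A was at -0.18 (adjusted p = 0.12), CCND1 at -0.07 and CDK4 at -0.05. The GTPase RHOC was at 0.19, the histone demethylase KDM1A at 0.11, the autophagy kinase ULK1 at 0.12, TP53INP1 at 0.27, BMI1 at 0.06, TOB2 at -0.09 and NR2F2 at -0.14. KDM1A, CDK4 and BMI1 had no match of 6 or more letters outside Alu letters.

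Many interferon-induced genes were lower. Of 53 tested, 25 were lower (47.2%, against 9.11% of all genes) and 2 higher (3.77%, against 6.28%), with a median of -0.24, and 18 of the lower genes kept their call when any library was left out. The count was 23 with the length slope in the fit and 28 without the number 2 libraries. Of the antiviral effectors, SAMD9, which restrains poxviruses, fell from 6.80 to 1.04 CPM (log2 fold change -2.70, adjusted p = 1.4e-08). CMPK2, a mitochondrial nucleotide kinase, fell from 0.889 to 0.246 CPM (-1.82), the GTPase MX1 from 2.19 to 0.895 CPM (-1.26) and IFI35 from 3.96 to 1.95 CPM (-1.03). IFIT1, which binds foreign capped RNA, was at -0.83 and IFI6 at -0.76. The ADP-ribosyltransferase PARP14 (-0.91), its relatives PARP9 (-0.90) and PARP12 (-0.78), and DTX3L, the ubiquitin ligase that partners PARP9 (-0.83), fell together, PARP9 from 20.9 to 11.2 CPM.

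Of the 17 sensors, adaptors and factors of the list, 6 were lower. TLR3, the endosomal sensor of double-stranded RNA, fell from 0.873 to 0.173 CPM (-2.33), and IRF2, a transcription factor with an 8mer, from 9.17 to 4.88 CPM (-0.91). JAK1, the kinase of the interferon receptors, which also has an 8mer, was at -0.34, the receptor chain IFNAR1 at -0.40 and the kinase EIF2AK2, an effector of the response, at -0.35. Of the factors that carry the signal to the nucleus, STAT2 at -0.14 and IRF9 at 0.24 did not pass the test, and the ubiquitin-like ISG15 was at -0.08. The membrane proteins IFITM2 (0.59) and IFITM3 (0.50) went the other way, the second only in 5 of the 12 fits that left out a library. A seed match outside Alu letters was present in 8 of the 25 lower genes and in 12 of the 53 tested.

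Genes of antigen presentation by MHC class I, which displays peptides to T cells, were lower as well. Of 15 tested, 8 fell (53.3%, against 9.11% of all genes) and 1 rose (6.67%), with a median of -0.34, and 7 of the 8 kept their call when any library was left out. TAPBP, which bridges MHC class I to the peptide transporter, fell from 60.8 to 27.7 CPM (log2 fold change -1.13, adjusted p = 4.7e-08). HLA-B (-0.49), HLA-C (-0.31), the transporter subunits TAP1 (-0.35) and TAP2 (-0.34) and the aminopeptidase ERAP1 (-0.36) fell by less. B2M, the light chain, was at -0.22 (adjusted p = 0.092). Reads of HLA genes can be shared between their near-identical members, so the split between HLA-B and HLA-C is uncertain. The transactivator NLRC5 was at -0.71 and was called in 10 of the 12 fits. PSMB10, a subunit of the immunoproteasome, rose by 0.62 against the empty vector and was at 0.00 against the miR-133a and miR-155 libraries. Of the 15 tested members 0 had a seed match of 7 letters or more outside Alu letters, so its absence does not set the lower genes apart.

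**Figure D4:**
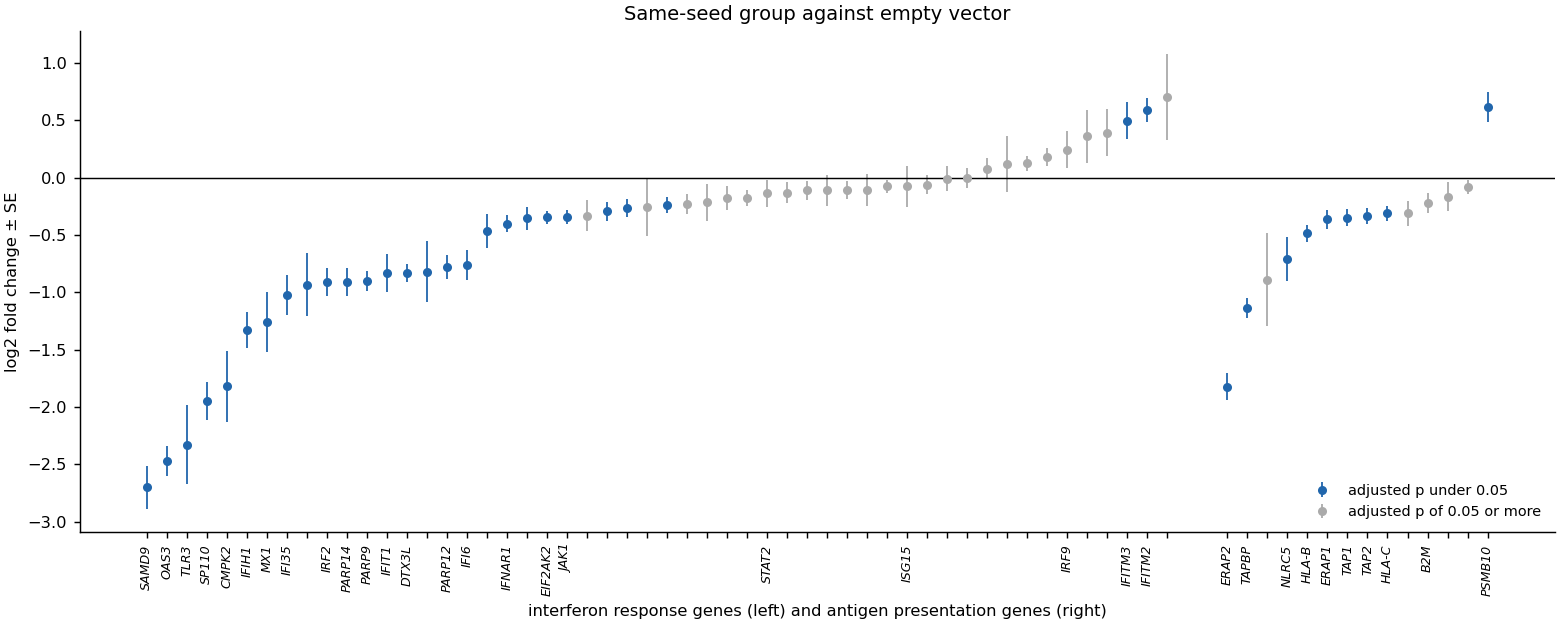
Log2 fold change ± SE of 52 of the 53 interferon response genes (left) and 14 of the 15 antigen presentation genes (right) that were tested, ordered by fold change, with called genes in blue and symbols under those described in the text. Of the interferon genes 25 lie below 0 and are called, from SAMD9 at -2.70, and 2 called genes lie above 0.

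Among cell cycle genes the pocket proteins, which restrain E2F factors and entry into S phase, fell together. In the list of G1/S control, 6 of 35 tested genes were lower (17.1%, against 9.11% of all genes) and 2 higher (5.71%), or 10 and 3 with the length slope, and all 6 kept their call when any library was left out. RB1, the retinoblastoma protein, fell from 139.5 to 85.8 CPM (-0.70), its relatives RBL1 and RBL2 were at -0.50 and -0.40, and E2F7, a repressor of the E2F family with an 8mer, was at -0.52. The CDK inhibitor CDKN2B, p15, fell from 44.6 to 28.7 CPM (-0.63). CDK2, which drives S phase entry, was lower too, at -0.32. CDKN1C, p57, and CCNE1, cyclin E1, were higher (0.94 and 0.33), each in 10 of the 12 fits that left out a library. Of 42 genes of DNA replication only MCM7 was called, at -0.18 and in 4 of the 12 fits, and of 35 mitotic genes 4 were lower and 3 higher, shares near those of all genes. In the p53 response, 2 of 26 fell and 2 rose, and of 31 apoptosis genes 4 fell and 2 rose. The death receptor FAS was at -0.45 and the caspase CASP8 at -0.37. The apoptosome scaffold APAF1 was at -0.32, and at -0.09 (adjusted p = 0.29) against the miR-133a and miR-155 libraries.

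The Hippo pathway was represented by LATS2 alone among the calls that held. Of 28 tested members 5 were lower (17.9%, against 9.11% of all genes) and 0 higher (median -0.14). The lower count lay between 1 and 7 when a library was left out, and was 2 with the length slope and 11 without the number 2 libraries. LATS1 was at 0.00, YAP1 at -0.12 and its partner WWTR1 at -0.16. The YAP-induced genes CCN1 and CCN2 were at -0.28 and 0.11, the first called in 3 of the 12 fits.

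In TGF-beta, activin and BMP signalling, 7 of 43 tested genes were lower (16.3%, against 9.11% of all genes) and 3 higher (6.98%, against 6.28%), with a median of 0.04. Next to TGFBR2 and BMPR2, the ligand GDF11, which has an 8mer, fell from 63.2 to 39.0 CPM (-0.70, adjusted p = 2.4e-06). Follistatin, FST, an antagonist of activins, fell from 3.59 to 1.85 CPM (-0.96) and SMAD9 was at -0.27, and at -0.02 (adjusted p = 0.76) against the miR-133a and miR-155 libraries. The co-receptor TGFBR3 rose (0.39), and the activin receptor ACVR2B was at 0.43, called in 11 of the 12 fits. TGFBR1 was at 0.12, SMAD3 at 0.00, SMAD4 at 0.04 and SMAD7 at 0.07.

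Of 110 chromatin and DNA methylation genes 14 were lower (12.7%, against 9.11% of all genes) and 5 higher (4.55%, against 6.28%), and with the length slope in the fit the counts were 12 and 15. Calls that held in every fit without a library were MBD2, KDM1B and SMARCC2, described above, the deacetylase HDAC9 (-0.84), the dioxygenase TET2 (-0.50, and -0.24 with an adjusted p of 0.061 against the miR-133a and miR-155 libraries), the remodeller SMARCA2 (-0.36) and the Polycomb protein PCGF5 (-0.33). The de novo DNA methyltransferase DNMT3B rose from 50.4 to 78.9 CPM (0.65, adjusted p = 4.6e-05), the corepressor RCOR2 from 5.001 to 9.19 CPM (0.88) and SMARCD2 by 0.23. Among transcription factor classes, 27 of 445 ZNF genes were lower (6.07%) and 8 higher (1.80%), or 21 and 19 with the length slope. HOXD8, which has an 8mer, fell from 12.8 to 6.28 CPM (-1.04), and ZNF25, also with an 8mer, from 19.9 to 10.3 CPM (-0.95).

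Of the list of pluripotency and reprogramming genes, 12 of 20 in the table could be tested. Of these, 5 were higher (41.7%, against 6.28% of all genes) and 1 lower (8.33%, against 9.11%). The lower gene, the nuclear receptor ESRRB, lost its call in each fit without 1 of the empty vector libraries (-0.47, -0.57 and -0.56). Of the 5 higher genes only 2, the germ cell nuclear receptor NR6A1 (0.51) and NR2F1 (0.39), rose in every fit. The list was not divided into members that promote and members that restrain pluripotency, so its count gives no direction for that state. MYC, at 0.38, LIN28B, at 0.32, and KLF4, at 0.31, were called in 11, 9 and 5 of the 12 fits. In the neuronal list, 8 of 22 genes were lower and 2 higher, with 6 lower calls held in every fit. Next to MAP2 and ELAVL2 these were the adhesion molecule NCAM1, which fell from 51.9 to 32.4 CPM (-0.68), the membrane glycoprotein GPM6A (-0.82), MAPT, which encodes tau (-0.57), and DPYSL3 (-0.41). GPM6A was at -0.15 (adjusted p = 0.36) against the miR-133a and miR-155 libraries. NES, nestin, an intermediate filament of progenitors, rose from 7.02 to 15.7 CPM (1.16).

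In the PI3K, AKT and mTOR list, 7 of 37 genes were lower (18.9%, against 9.11% of all genes) and 4 higher (10.8%, against 6.28%). With the length slope the counts were 5 and 4. Of its 18 kinases and phosphatases 6 were lower (33.3%). The catalytic subunit PIK3CA fell from 28.3 to 18.4 CPM (-0.62) and the regulatory subunit PIK3R3 from 47.2 to 27.7 CPM (-0.77), both with an 8mer. FOXO3, a transcription factor restrained by AKT, was at -0.25, and at 0.06 (adjusted p = 0.29) against the miR-133a and miR-155 libraries. DEPTOR, an inhibitor of mTOR, rose by 0.55 and the translation repressor EIF4EBP1 by 0.44, the second at 0.18 (adjusted p = 0.074) against the miR-133a and miR-155 libraries. In growth factor and MAPK signalling, 10 of 81 fell (12.3%, against 9.11%) and 6 rose (7.41%, against 6.28%), and none of the 10 held in every fit. With the length slope the balance turned, to 4 lower and 11 higher. EGFR, with an 8mer, was at -0.66 against the empty vector, called in 10 of the 12 fits, and at 0.30 (adjusted p = 0.14) against the miR-133a and miR-155 libraries. FGFR4 rose from 16.98 to 28.3 CPM (0.74) and the ERK phosphatase DUSP5 from 20.6 to 40.9 CPM (0.99). Of 23 JAK-STAT and cytokine receptor genes, 4 fell (17.4%, against 9.11%) and 1 rose (4.35%, against 6.28%). The lower genes included the oncostatin M receptor OSMR, from 9.82 to 4.87 CPM (-0.99), IL6ST (-0.34) and LIFR (-0.30), which are chains of related receptors. IL6ST was at 0.00 (adjusted p = 0.98) against the miR-133a and miR-155 libraries. In the Wnt list 3 of 38 fell (7.89%, near the 9.11% of all genes) and 0 rose, or 4 and 4 with the length slope. Among the lower genes were FZD6 (-0.58) and WNT5A (-0.50). In NF-kB signalling 3 of 30 fell and 2 rose, shares near those of all genes, and RELA was the sole call that held. Of 24 Notch and Hedgehog genes 0 fell and NOTCH3 rose (0.91).

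In membrane traffic, 6 of 69 genes were lower (8.70%) and 2 higher (2.90%), or 3 and 2 with the length slope, near or below the shares of all genes. SEC23A, a subunit of the COPII coat that carries cargo from the endoplasmic reticulum, has an 8mer and fell from 140.1 to 72.8 CPM (log2 fold change -0.95, adjusted p = 4.3e-09). VPS35, the core of the retromer, fell from 232.1 to 154.0 CPM (-0.59, adjusted p = 1.4e-06). Of 63 RAB GTPases and effectors 8 were lower (12.7%, against 9.11% of all genes) and 3 higher (4.76%, against 6.28%). All 8 had a seed match of 7 letters or more outside Alu letters, where 26 of the 63 did. Among them were RAB22A (-0.59), RAB27B (-0.65) and RABGAP1 (-0.67). Of 58 autophagy and lysosome genes 3 fell and 6 rose, or 7 and 5 with the length slope. The ubiquitin enzymes UBE2B (-0.69, with an 8mer) and NEDD4 (-0.64) fell, with 4 of 38 lower and 3 higher in their list. In the list of miRNA processing and mRNA decay 2 of 39 fell and 1 rose, and the deadenylase CNOT6 was at -0.34.

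In the extracellular matrix 14 of 58 genes were lower (24.1%, against 9.11% of all genes) and 6 higher (10.3%, against 6.28%), or 12 and 9 with the length slope, and 10 of the lower calls held in every fit. The cross-linking enzyme LOX fell from 38.7 to 25.2 CPM (-0.62), the laminin chain LAMA4 from 113.8 to 76.2 CPM (-0.58), and COL12A1 from 6.16 to 2.99 CPM (-1.05). Of the integrins, which bind cells to this matrix, ITGB8 (-0.81), ITGA2 (-0.53), ITGA1 (-0.51) and ITGAV (-0.40) fell. COL9A3 and COL2A1, chains of cartilage collagens, rose by 1.05 and 0.66. Of 8 serpins 4 rose and 2 fell, where 6.28% and 9.11% of all genes did. Those that rose, all in every fit, were SERPINF1, SERPING1 (1.28), SERPINE2 (0.34) and the collagen chaperone SERPINH1 (0.31). SERPINB6 and SERPINB8 fell, but both lost their call in each fit without 1 of the empty vector libraries.

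Several epithelial genes were higher. Of 15 tested, 8 were higher (53.3%, against 6.28% of all genes) and 1 lower, with a median of 0.32, and the number of higher genes was 6 with the length slope in the fit and 3 to 8 when a library was left out. The calls that held were CDH1, E-cadherin, from 13.6 to 21.2 CPM (0.64, adjusted p = 9.8e-04), the keratin KRT8 (0.42) and the junction protein TJP3 (1.5, from 0.633 to 1.76 CPM). KRT8 was at 0.03 (adjusted p = 0.74) and KRT18 at 0.07 (adjusted p = 0.48) against the miR-133a and miR-155 libraries. EPCAM (0.40), KRT18 (0.32), CLDN3 (1.10), CLDN4 (0.73) and CLDN7 (0.83) were called in 9 to 11 of the 12 fits. Of 13 mesenchymal genes and factors 3 fell and 2 rose. ZEB1, a repressor of CDH1, was at -0.44, and SNAI1, another, was at 0.95, from 1.81 to 3.48 CPM. In a list of 31 actin-binding genes, which does not hold SCIN, 0 fell and 5 rose, or 2 and 7 with the length slope. Among the higher genes were CNN2 (0.58) and zyxin, ZYX (0.38), which was at 0.12 (adjusted p = 0.15) against the miR-133a and miR-155 libraries.

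Of 37 genes of glycolysis and the hypoxia response 0 fell and 8 rose (21.6%, against 6.28% of all genes), or 6 with the length slope, and the rises that held were SLC2A3, a glucose transporter, from 10.1 to 22.7 CPM (1.17, adjusted p = 2.4e-07), NDRG1, from 185.4 to 326.1 CPM (0.81), the aldolase ALDOC (0.77) and EPAS1, which encodes HIF-2 alpha (0.63). SLC2A3 was at 0.30 against the miR-133a and miR-155 libraries. Of 36 genes of cholesterol and fatty acid synthesis 1 fell and 3 rose. Of 242 solute carriers 26 were lower (10.7%, against 9.11% of all genes) and 22 higher (9.09%, against 6.28%).

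Genes of large complexes with short transcripts shifted together by little, and the shift went with gene length. Of 83 cytosolic ribosomal proteins 81 had a fold change above 0, with a median of 0.16, but 1 was called higher, and with the length slope in the fit the median was -0.02. The medians of 75 mitochondrial ribosomal proteins, 80 subunits of oxidative phosphorylation and 35 proteasome subunits were 0.15, 0.18 and 0.14, and -0.01, -0.02 and -0.00 with the slope. The slope was computed from these genes too, so medians near 0 are in part built in, and the cause of the shift was not tested. In the other direction, 15 of 68 activators and exchangers of small GTPases, which have long transcripts, were lower (22.1%) and 2 higher (2.94%). Of all genes 9.11% were lower and 6.28% higher. With the slope the counts were 6 and 5, and the lower share was then near that of all genes. The 8 protein-coding genes of mitochondrial DNA that were tested gave no call.

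**Figure D5:**
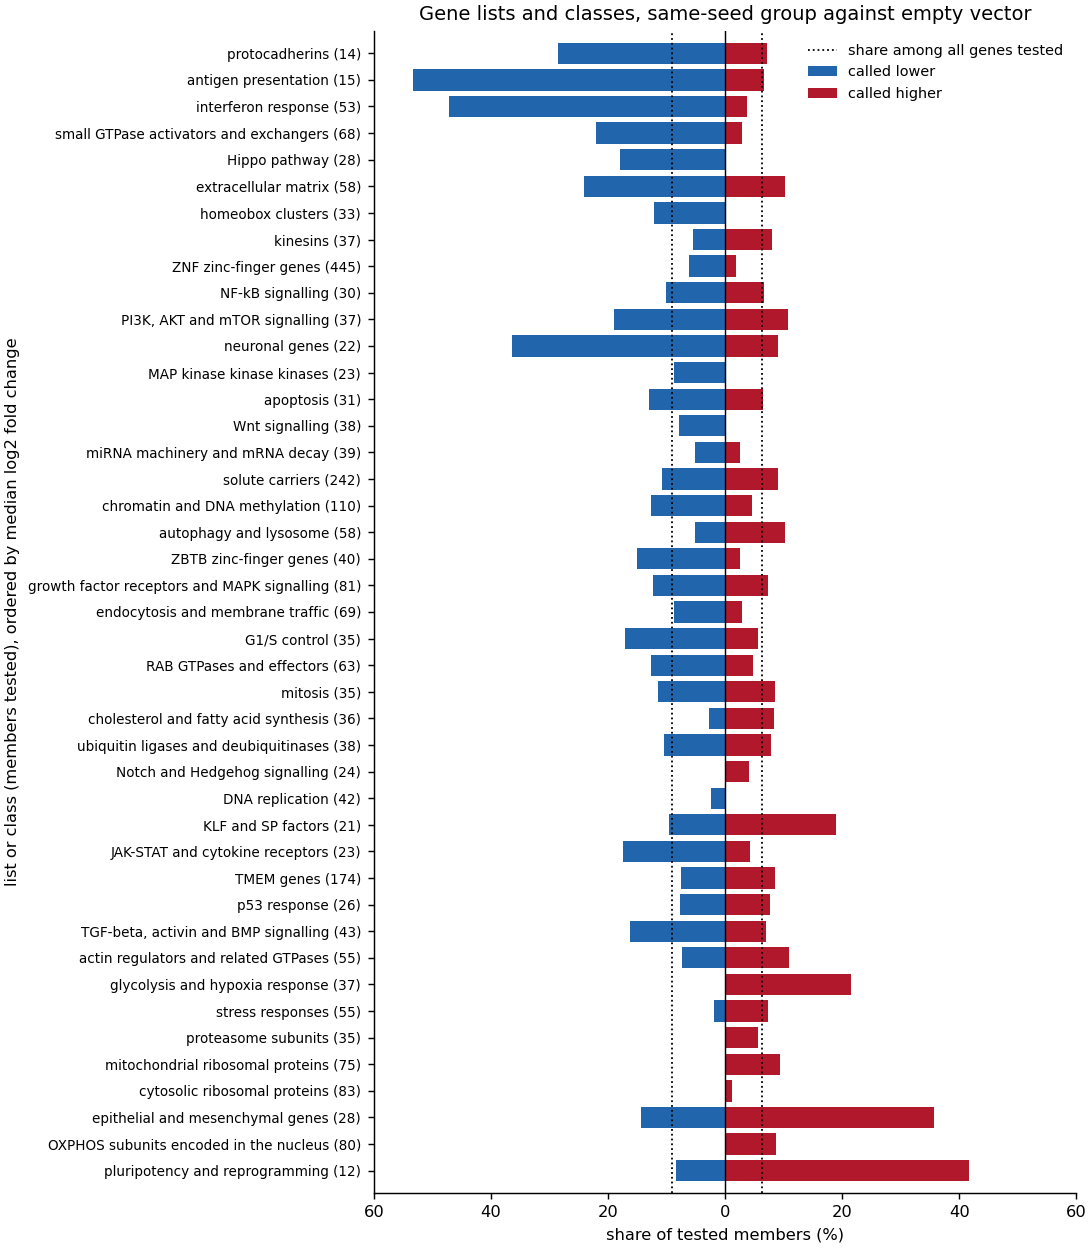
Share of the tested members (%) called lower (blue, to the left) and higher (red, to the right) in each list or class of at least 10 tested genes other than the reported targets, ordered by median log2 fold change, with the number tested in parentheses and the shares among all genes as dotted lines. The lists of interferon response (47.2% lower) and antigen presentation (53.3% lower) extend farthest to the left of the 9.11% of all genes.

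Apart from the marker lists as a whole, single markers of other cell types changed at low levels. DES, desmin, a muscle gene, rose from 0.234 to 1.12 CPM (log2 fold change 2.20, adjusted p = 6.0e-04), and CYP3A4, a liver gene, was at -1.67, from 0.515 to 0.166 CPM, called in 11 of the 12 fits. The part of these transcripts in the results above was not tested.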

How the data were processed

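Total RNA (1000 ng) was made into strand-specific polyadenylated RNA libraries. According to the submitters' notes and methods, the authors aligned the reads to hg19 with TopHat2 2.1.1 and counted those on exons per gene, by strand, with featureCounts. The deposited counts are whole reads per gene, raw and without normalization, in 1 table per batch, and the first batch was not used here. The deposited tables of the authors' own comparisons (log2 fold changes, mean log2 CPM, p- and q-values from edgeR 3.24.3, for RNA-seq and for a model joining it with PRO-seq) were not used.

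Counts of the 18 libraries of the second batch (6 groups of 3) were fitted together with edgeR 4.0.16 in R 4.3.3: filterByExpr with a minimum count of 10, TMM scaling, a quasi-likelihood fit with 1 coefficient per group, and Benjamini-Hochberg adjustment over the 14054 genes tested, with a threshold of 0.05. The same-seed contrast was the mean of the 3 miRNA coefficients minus the empty vector, and SEs were derived from its F statistic. CPM values are counts scaled by the TMM library size. Chi-square statistics per degree of freedom between replicates were 2.99 to 33.6, so no library was a copy of another. Symbols, 3'UTRs and coordinates came from a GENCODE annotation on GRCh37, which matched 28543 of the 29794 genes, and mature miRNAs from RefSeq. Fits were tested on simulated data with known changes.

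The comparison, the gene lists (1335 symbols, 12 of them unmatched) and the tests were chosen with earlier results of these data known. Genes were named by rule: the 10 lowest and 10 highest fold changes among called genes whose log2 CPM averaged 1 or more, with no overlap between the groups, the 6 lowest of them with an 8mer, up to 2 lower and 2 higher genes of smallest p per list, and all tested reported targets, apart from a few items that are not reported here. Other list members named, and list members called in few fits, were chosen after their values were seen. Alternatives were DESeq2 1.42.0 and its size factors, edgeR's likelihood ratio test, other count filters, other sets of libraries, a replicate block, the length slope as a covariate, other 3'UTR choices and leaving out each library. Leaving out the number 2 libraries and setting Alu letters apart were added after seeing the data.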

Additional observations from a re-analysis of the deposited data

Results flagged for a closer look

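Of 49 sets of 9 same-seed values that were checked for a library far from the others by Dixon's criterion, 3 held one, and chance gives about 1 in 20. SP110 was at 0.912 CPM in the first replicate of miR-302a, where the other 8 libraries lay between 1.87 and 2.62 CPM. MXRA8 was at 4.95 CPM in the third replicate of miR-373, with the others between 2.71 and 3.66 CPM. BMPR2 was at 39.5 CPM in the second replicate of miR-372, with the others between 47.9 and 51.9 CPM. In each case the library lay on the side away from the empty vector, and the gene kept its call when that library was left out.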

How the results depend on the processing

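Of 213 values of the comparisons (those of the Alu matches not among them) recomputed under alternatives, 196 stayed within 1.5 times the reported count or within the spread between replicates, 17 moved and 0 reversed. Leaving out 1 library gave 1100 to 2525 called genes, 698 to 1425 lower and 392 to 1100 higher, the lowest values coming from fits without 1 of the empty vector libraries. The higher genes numbered 1405 without the 3 number 2 libraries. Between the 3 miRNAs, DESeq2 called 4 genes and edgeR's likelihood ratio test 4, against 0. The 8mer difference (-0.21) was -0.13 with the length slope and -0.28 and -0.12 in the groups of shortest and longest 3'UTRs, and the plain 7mer-m8 difference (-0.08) was -0.0293 and, in the longest group, -0.0042. The difference of genes with Alu matches only (-0.03) reversed to 0.0068, 0.0114 and 0.0397 in the 3 longer groups. The causes were not tested.

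Replicate numbers are shared by the groups, but the deviations of same-numbered libraries correlated above 0.1 at all 3 numbers only between miR-302a and miR-372, so the numbers were not taken as pairs. With a replicate block the fit called 2903 genes, 1636 lower and 1267 higher. Of the 12 libraries, 8 correlated best with a library of their own number. Of 3818 values for 174 named genes, 3534 kept direction and side of the threshold, 272 lost and 7 gained the call, and 5, all of BMI1 and none of them called, reversed. BMI1 ranged from -0.0637 without the first empty vector library to 0.1466 without the third, and was -0.0728 without the number 2 libraries. The lower share of called genes was 53.4% to 66.0%. Depth limits the genes near 1 CPM, and 3 empty vector libraries limit all counts of calls.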

Other observations

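Other gene classes held single changes of size. Among solute carriers, SLC16A9 (log2 fold change -0.59), SLC25A24, a mitochondrial carrier of ATP and phosphate (-0.55), SLC35D1 (-0.54) and SLC46A3 (-0.64) fell, and the zinc importer SLC39A1 rose (0.48), from a mean of 118.4 to 164.9 CPM. Among ZBTB repressors, ZBTB38 (-0.59), ZBTB41 (-0.53), ZBTB5 (-0.48) and ZBTB11 (-0.39) fell, the last 3 with an 8mer. ZBTB38 was at -0.12 (adjusted p = 0.31) against the miR-133a and miR-155 libraries. KLF15, a factor of metabolic genes, rose by 0.53 and SP6 by 0.67, GABARAPL1, which coats autophagosomes, by 0.50, and the lysosomal precursor PSAP by 0.33. These genes were chosen after their values were seen, and each kept its call when any library was left out.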
